A study of Mus musculus with 4 samples.

Results

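The genes described here are 35 interferon response genes (the members), out of 32286 genes counted, chosen by symbol from a list of genes that interferon is known to induce or that carry its signal. All 35 were found in the counts, and the GENCODE annotation places them in 23 loci. Single-cell RNA was read with 10x Genomics 3′ chemistry in microvascular fragments, caught with PECAM1 antibodies, from the brains of 4 mice of 3 months, with 1 library per mouse. WT1 (female) and WT2 (male) were *Angpt2*-WT (*Angpt2*+/+), and KO1 (female) and KO2 (male) were *Angpt2*-KO. *Pgk*-Cre, which is not restricted to one cell type, had removed an internal exon of the floxed gene, so that the exon is missing in every cell and not only in endothelium, and the mice were littermates on a C57BL6/J background. Whether these genes move together with the genotype, or whether single loci such as the one of *Mndal* and *Ifi203* move alone, was asked in endothelial cells (ECs), in their arterial, capillary and venous zones, in ECs with an *Apln* UMI, in mural cells and in microglia.

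Interferons bind receptors at the cell surface, whose kinases pass the signal on by phosphorylation. A complex that holds STAT2 and IRF9 then enters the nucleus and binds a repeated GAAA motif, the interferon-stimulated response element, near the genes it switches on. The products include antiviral effectors (IFIT and IFITM proteins, viperin, tetherin), sensors of viral nucleic acid, GTPases that attack pathogen vacuoles, and the subunits of the immunoproteasome that cut peptides for MHC class I. *Mndal*, *Ifi203* and *Ifi204* belong to the PYHIN family, whose proteins carry a pyrin domain and in most members a DNA-binding HIN domain, and whose genes lie side by side in the mouse genome. Brain endothelium is known to keep a low basal level of many interferon response genes.

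The libraries held 31753395 to 42903731 UMIs in the 17999 of 19809 barcodes that had more than 500 genes and under 10% mitochondrial UMIs, and any pair of libraries shared 1 to 16 barcodes. Cluster names come from listed marker genes and end in “-like”, and the members took no part in the clustering. There were 13945 ECs (3167 and 4612 in WT1 and WT2, 2063 and 4103 in KO1 and KO2), 1300 mural cells (pericyte-like and smooth muscle-like) and 917 microglia-like cells. The sum of 7 endothelial markers in ECs was 11630.9 to 12662.3 CPM (UMIs of a gene scaled to all UMIs of the group) over the mice, and that of 8 microglial markers was 46.9 to 56.4 in WT1, WT2 and KO1 and 87.4 in KO2. The sum of 6 markers of fenestrated endothelium in ECs moved with the genotype, at 42.4 and 40.9 in WT1 and WT2 against 77.03 and 81.0 in KO1 and KO2. Markers of choroid plexus epithelium moved the other way, from 686 and 583 to 60.3 and 264, as did those of oligodendrocytes, from 34.4 and 58.3 to 18.4 and 17.9. Without overlap between the genotypes, the astrocyte and erythroid sums were also higher in KO, and the fibroblast, platelet and neutrophil or monocyte sums lower. The part of these markers in the results was not tested. *Angpt2* itself was at 10.7, 9.89, 65.3 and 41.3 CPM in the ECs of WT1, WT2, KO1 and KO2, which checks no label, because 3′ counts do not read the deleted exon.

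RefSeq promoter windows (250 bases before to 50 after a gene's start, GRCm38.p6) were found for 31 members, all but *Ifi204*, *Rtp4*, *Usp18* and *Ifi27*. A response-element motif, spelled GAAANNGAAA and searched on both strands, was in the windows of 19 of the 31 (61.3%), against 3.99% of 27025 genes. The members were chosen for their known link to interferon, which favours a high share, so this is a description and not a test. Stretches of 30 bases are shown for the PYHIN pair and for members that the comparisons below call, because they show that members with opposite differences hold the same motif. Capitals mark the GAAA units, or TTTC where the motif lies on the other strand, and each sequence is written 5′ to 3′ on the strand of its gene.
Mndal (chr1:173880204-173880233, minus strand): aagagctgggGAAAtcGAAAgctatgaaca
Ifi203 (chr1:173942508-173942537, minus strand): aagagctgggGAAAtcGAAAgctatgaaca
Isg15 (chr4:156200865-156200894, minus strand): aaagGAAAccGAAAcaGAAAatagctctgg
Ifit1 (chr19:34640794-34640823, plus strand): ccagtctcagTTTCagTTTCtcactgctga
Ifit3 (chr19:34583397-34583426, plus strand): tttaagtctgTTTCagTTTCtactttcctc
Gbp2 (chr3:142620594-142620623, plus strand): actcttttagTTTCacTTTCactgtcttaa
Gbp3 (chr3:142559995-142560024, plus strand): acagTTTCagTTTCtaTTTCccagatccct
Rsad2 (chr12:26456553-26456582, minus strand): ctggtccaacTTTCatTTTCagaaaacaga
Bst2 (chr8:71537577-71537606, minus strand): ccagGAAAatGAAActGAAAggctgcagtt
The stretches of *Mndal* and *Ifi203* had the same letters, and the promoter windows around them were 94.3% identical over 299 aligned bases. The GENCODE annotation has *Mndal* begin elsewhere, at chr1:173942491, inside a promoter window of *Ifi203* (chr1:173942443-173942742). The RefSeq window of *Mndal* used here lies within that GENCODE gene. Which start these cells use was not tested. No GAAANNGAAA was found in the windows of *Psmb8*, *Psmb9*, *Ifitm1* and *Ifit2*. The 2 matches in the window of *Ifitm3*, also called below, lay after the gene's start and are not shown. A match is only a match of letters, and binding was not measured.

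In ECs, 3 of the 35 members were higher and 2 were lower in *Angpt2*-KO mice, and the 3 that rose were the PYHIN genes *Ifi204*, *Mndal* and *Ifi203*, which share 1 locus. UMIs were summed per mouse and compared with edgeR's quasi-likelihood test, and called means a Benjamini-Hochberg adjusted p under 0.05 over all genes tested. Levels are CPM scaled by edgeR's TMM factors unless said otherwise. Of all 13431 genes tested in ECs, 3.75% were called higher and 2.07% lower. The p-values measure the spread between these 4 mice only, and with 2 mice a genotype an exact two-sided permutation test cannot go below 0.333.

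*Mndal* (ENSMUSG00000090272, chr1:173849126-173942491, minus strand, GRCm38) was at 21.7 and 18.6 CPM in WT1 and WT2 and at 101 and 52.1 CPM in KO1 and KO2. *Ifi203* (ENSMUSG00000039997, chr1:173920407-173942672, minus strand) was at 31.1, 26.4, 118 and 72.8 in the same order of mice (WT1, WT2, KO1, KO2), which is kept from here on. *Ifi204* (ENSMUSG00000073489, chr1:173747293-173766943, minus strand), which encodes the DNA sensor p204, was at 0.434, 0.417, 9.71 and 3.91, from 11, 14, 219 and 85 UMIs. For all 3 genes both KO mice lay above both WT mice, with KO1 the higher of them. The log2 fold change was 1.93 ± 0.27 for *Mndal* (SE, adjusted p = 0.0072), 1.73 ± 0.21 for *Ifi203* (adjusted p = 0.0048) and 3.99 ± 0.49 for *Ifi204* (adjusted p = 0.0046), each from edgeR's quasi-likelihood test. *Mndal* and *Ifi203* overlap on the same strand, the annotation also lets *Mndal* overlap *Ifi211*, and 4.65% and 8.15% of the 50-base runs in the last 500 bases of *Mndal* transcripts were shared with *Ifi203* and *Ifi204*. How reads in such places were counted is not given in the sources used here, so the split between these genes is uncertain.

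**Figure D1:**
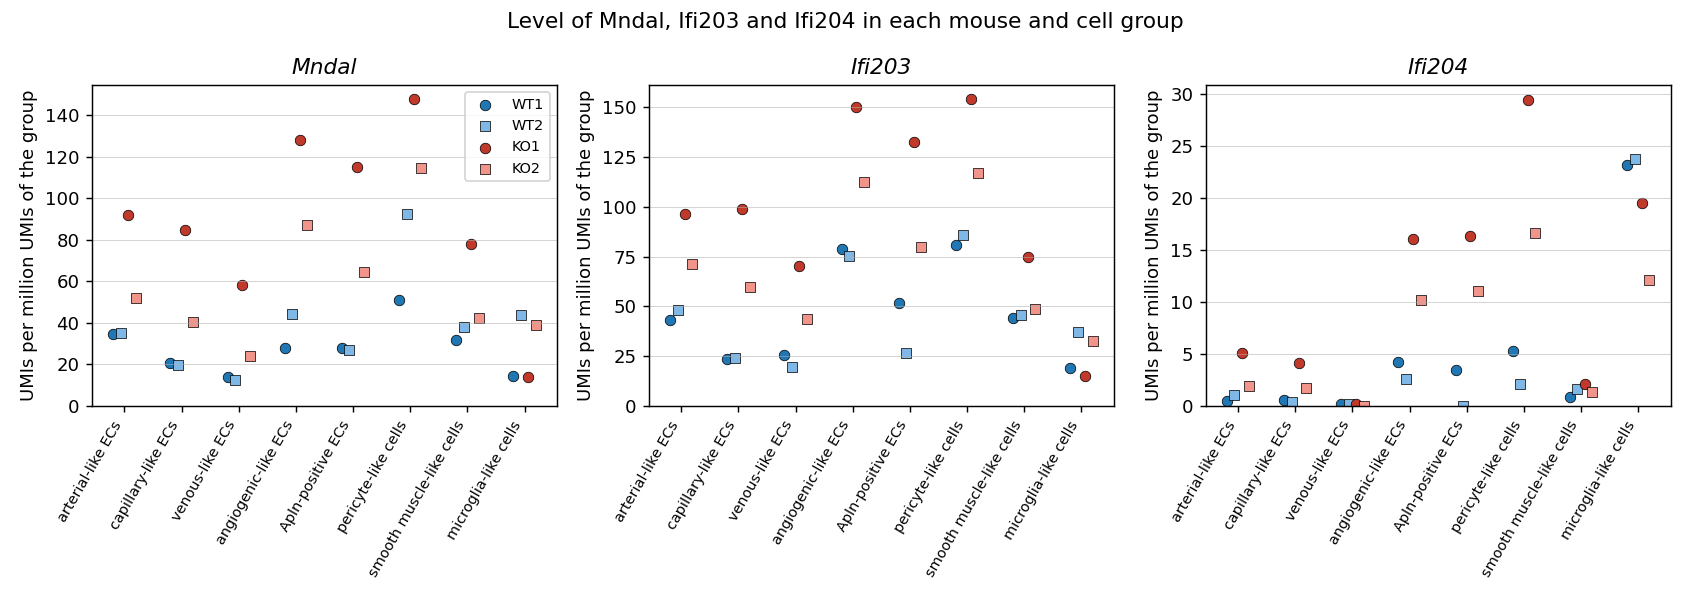
CPM of the cell group (vertical axis, not TMM-scaled) of *Mndal*, *Ifi203* and *Ifi204* in 8 cell groups (horizontal axis), with 1 point per mouse. KO1 and KO2 lie above WT1 and WT2 in every endothelial group for *Mndal* and *Ifi203*, and in microglia-like cells the genotypes overlap for these 2 genes.

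The remaining 32 members were mostly a little lower in KO ECs. Of them 28 had a negative log2 fold change, 21 had both KO mice below both WT mice and 2 had both above, with a median of -0.21. Over all genes tested the median was -0.02, 26.3% had both KO mice below both WT mice and 24.4% both above. The calls among the 32 were *Psmb9*, which encodes a catalytic subunit of the immunoproteasome, and *Ifit1*, whose product binds viral RNA.

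*Psmb9* was at 105, 131, 76.7 and 69.3, with a log2 fold change of -0.69 ± 0.13 (adjusted p = 0.0201, edgeR's quasi-likelihood test). *Psmb9* and *Tap1* overlap on opposite strands, and whether the counting used strand is not given in the sources used here. *Ifit1* was at 143, 158, 110 and 108, with a log2 fold change of -0.46 ± 0.10 (adjusted p = 0.0377, edgeR), and lost its call in 7 of 15 alternatives, the replicate block among them (adjusted p = 0.0623, edgeR). For both genes the 2 KO mice were closer to each other than to either WT mouse. *Ifitm1*, which encodes a membrane protein that blocks viral entry, had the lowest log2 fold change, -1.72 ± 0.41, from 9.58, 21.2, 3.10 and 6.34, and missed the threshold (adjusted p = 0.0515, edgeR).

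By role, the 6 signalling genes (*Stat2*, *Irf9*, *Irf7*, *Irf1*, *Usp18* and *Isg15*) had no call and a median log2 fold change of -0.21, and 5 of them had both KO mice below both WT mice. The 16 antiviral effectors had 1 call, *Ifit1*, and a median of -0.14. Among them *Ifit2*, whose product restrains translation, was at 34.1, 27.5, 53.9 and 37.7, with both KO mice above both WT mice (log2 fold change 0.57 ± 0.18, adjusted p = 0.124, edgeR), although its neighbours *Ifit1* and *Ifit3* lay below 0. The 6 GTPases (*Irgm1*, *Irgm2*, *Igtp*, *Gbp2*, *Gbp3* and *Gbp7*) had no call, all lay below in both KO mice, and their log2 fold changes ran from -0.36 to -0.08. The 3 antigen processing genes (*Psmb8*, *Psmb9* and *Tap1*) had 1 call and a median of -0.56. *Ifih1*, which encodes the RNA sensor MDA5, was at -0.05 on the log2 scale.

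Summed over the 32 members other than *Mndal*, *Ifi203* and *Ifi204*, the level in ECs was 4548, 5731, 4273 and 4146 CPM. The sum of these 3 was 52.1, 45.8, 231 and 129. Both KO mice thus lay below both WT mice in the first sum and above them in the second. Without *Ifitm3* the other 31 members of the first sum added up to 3325, 3885, 3272 and 3134, so that WT1 and KO1 were close and WT2 stood above the other 3 mice. In *Apln*-negative ECs this sum was higher in KO1 (3375) than in WT1 (3323).

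The calls in ECs changed with the mice and the clusters that were summed. Without WT2 no member was called, and without WT1 8 were called. The log2 fold changes without WT2 were 1.82 for *Mndal*, 1.61 for *Ifi203* and 3.96 for *Ifi204* (adjusted p = 0.0958, 0.0736 and 0.0781, edgeR). Without the angiogenic-like clusters, which held 40, 33, 843 and 917 ECs of WT1, WT2, KO1 and KO2, *Mndal* (1.45) and *Ifi203* (1.30) remained called (adjusted p = 0.0312 and 0.0107, edgeR), and *Ifi204* (2.31), *Psmb9* (-0.63) and *Ifit1* (-0.37) did not. In sums over cells, more cells at a high level and more RNA per cell cannot be told apart.

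**Figure D2:**
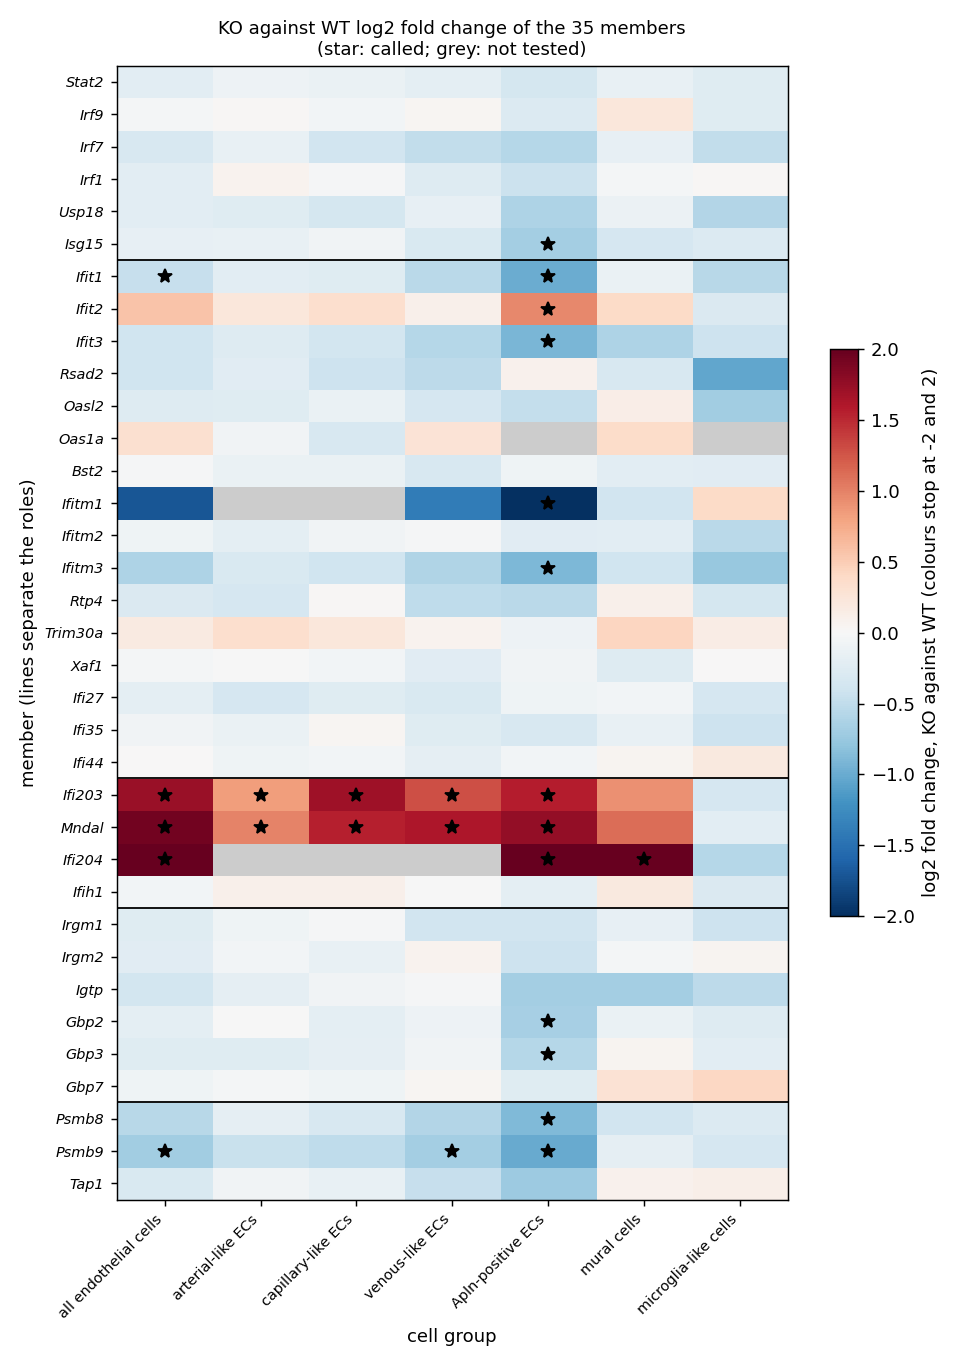
The log2 fold change of KO against WT (colour, stopping at -2 and 2) of the 35 members, ordered by role, in 7 cell groups, with stars for called members and grey for members not tested. The rows of *Ifi203* and *Mndal* are red in all groups but microglia-like cells, and most other rows are pale blue.

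Per cell, more KO than WT ECs held a *Mndal* UMI. After thinning each cell to 2000 UMIs, which left 2983, 4043, 1953 and 3501 cells, a *Mndal* UMI was in 3.52% and 3.56% of WT1 and WT2 cells (exact 95% intervals 2.89 to 4.25 and 3.01 to 4.18) and in 15.8% and 8.80% of KO1 and KO2 cells (14.2 to 17.5 and 7.88 to 9.78). *Ifi203* UMIs were in 4.96%, 4.65%, 17.7% and 10.9%. In microglia-like cells at the same depth a *Mndal* UMI was in 0.633%, 2.99%, 1.67% and 3.69%, so that the WT shares in ECs were no higher than the highest share there, and the KO shares were.

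Unthinned, with median UMIs per EC of 5421, 4506, 7529 and 3884, the shares of ECs with a *Mndal* UMI were 11.02%, 9.06%, 39.4% and 16.5%. The mean number of the other 32 members found in a thinned cell was 5.91, 6.65, 5.86 and 5.80. At least 5 of them were found in 65.2%, 74.5%, 64.4% and 64.3% of cells, so WT2 stood above the other 3 mice here. The intervals and shares cover counting error only.

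In all 4 mice *Ifi203* was found more often in ECs with a *Mndal* UMI than in those without, although most ECs with a *Mndal* UMI held none of *Ifi203*. At 2000 UMIs per cell, *Ifi203* was found in 23.8%, 17.4%, 33.4% and 22.1% of ECs with a *Mndal* UMI and in 4.27%, 4.18%, 14.7% and 9.83% of those without. The neighbours *Ifit1* and *Ifit3* showed a like pattern, with *Ifit3* in 23.2%, 24.4%, 23.8% and 20.8% of ECs with an *Ifit1* UMI and in 6.71%, 8.73%, 8.16% and 6.21% of those without. These pairs each share a locus, and reads of *Mndal* and *Ifi203* may be exchanged, whose part was not tested. For *Ifit3* and *Mndal*, which lie on different chromosomes, *Ifit3* was in 13.3%, 20.1%, 16.6% and 10.7% of ECs with a *Mndal* UMI and in 9.62%, 11.8%, 9.67% and 8.46% of those without.

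In arterial-like ECs *Mndal* was at 35.5, 34.7, 90.6 and 51.9 and *Ifi203* at 44.2, 47.9, 94.8 and 70.9. Both were called higher in KO, with log2 fold changes of 1.00 ± 0.18 (adjusted p = 0.0019) and 0.84 ± 0.14 (adjusted p = 0.0013, edgeR's quasi-likelihood test), and no other of the 33 members tested was called, where 0.788% of all genes were called higher and 0.412% lower. *Psmb9* had the lowest log2 fold change, -0.45, from 112, 130, 98.2 and 80.0 (adjusted p = 0.0793, edgeR). It was followed by *Rtp4*, whose product helps receptors reach the membrane, at 84.3, 96.3, 71.1 and 72.0. Without KO1 *Mndal* was not called in arterial-like ECs (0.57, adjusted p = 0.150, edgeR).

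In capillary-like ECs *Ifi203* was at 24.8, 22.8, 98.0 and 60.3 and *Mndal* at 21.6, 18.7, 83.8 and 40.7. They were again the only calls among 33 members tested, with log2 fold changes of 1.69 ± 0.21 (adjusted p = 0.0054) and 1.56 ± 0.28 (adjusted p = 0.0292, edgeR), beside 0.598% of all genes called higher and 0.188% lower. The 2 lowest changes were those of *Psmb9*, with 82.1, 79.7, 51.2 and 60.7 (-0.51, adjusted p = 0.151, edgeR), and *Rsad2*, which encodes viperin, with 105, 117, 82.2 and 85.3 (-0.41, adjusted p = 0.252, edgeR). DESeq2 did not call *Mndal* in capillary-like ECs (1.62, adjusted p = 0.177) or in venous-like ECs (1.62, adjusted p = 0.247).

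In venous-like ECs *Mndal* was at 14.0, 12.5, 57.1 and 23.8 and *Ifi203* at 26.1, 19.8, 68.8 and 42.9, with log2 fold changes of 1.61 ± 0.29 (adjusted p = 0.0107) and 1.29 ± 0.20 (adjusted p = 0.0054, edgeR). *Psmb9* fell, from 114 and 149 in WT1 and WT2 to 87.6 and 76.7 in KO1 and KO2 (log2 fold change -0.68 ± 0.14, adjusted p = 0.0316, edgeR). These were the calls among 34 members tested, where 0.961% of all genes were called higher and 0.587% lower. Without WT1 15 members were called there, and without WT2 only *Rsad2* was, with *Mndal* at 1.53 and *Ifi203* at 1.09 (adjusted p = 0.139 and 0.0778, edgeR). *Ifitm1* at 9.17, 22.8, 2.69 and 9.82 overlapped between the genotypes. Most members other than *Mndal*, *Ifi203* and *Ifi204* lay below 0 in each zone. Their log2 fold change was negative for 26 of 31 tested in arterial-like, 26 of 31 in capillary-like and 26 of 32 in venous-like ECs. Their medians were -0.14, -0.13 and -0.25, beside -0.005, -0.006 and -0.018 over all genes. Of all genes tested, 49.1%, 48.7% and 47.1% lay above 0.

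With all 4 mice the zones did not differ in these rises beyond the threshold, but arterial-like and capillary-like ECs did when a KO mouse was left out. The rise of *Ifi203* in arterial-like ECs minus that in capillary-like ECs was -0.86 ± 0.16 on the log2 scale (adjusted p = 0.0657) and that of *Mndal* was -0.58 ± 0.17 (adjusted p = 0.484, edgeR's test of the interaction). No member was called in this difference, beside 0.0171% of all genes called. Without KO1 the difference of *Ifi203* was called (-0.72, adjusted p = 0.0491), and without KO2 those of *Ifi203* (-1.01, adjusted p = 0.0012) and *Mndal* (-0.70, adjusted p = 0.0427, edgeR). For venous-like minus capillary-like ECs the values were -0.44 ± 0.17 for *Ifi203* and -0.06 ± 0.19 for *Mndal*, and no member was called, beside 0.069% of all genes. At an unadjusted p under 0.05 (edgeR) there were 4 members in the arterial-like and 5 in the venous-like difference. The share of all genes under this unadjusted threshold was not computed, so these 2 counts show no excess. No other tool was run on these differences. *Ifi204* had too few UMIs to pass the filter within any zone, with 3, 7, 13 and 7 UMIs in arterial-like, 3, 2, 10 and 9 in capillary-like and 2, 3, 1 and 0 in venous-like ECs. It passed in arterial-like minus capillary-like ECs (-0.59 ± 0.92, adjusted p = 0.984, edgeR), and with no filter on low counts it was called in capillary-like ECs. In the angiogenic-like clusters *Ifi204* had 2, 1, 189 and 68 UMIs, which were 189 of the 219 in the ECs of KO1 and 68 of the 85 in those of KO2.

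Levels in the angiogenic-like clusters, where 40 and 33 WT cells gave few UMIs, are a description without a test. *Mndal* was at 27.6, 44.3, 128 and 86.9 CPM there (without TMM scaling) and *Ifi203* at 78.7, 75.5, 150 and 112. The ratio of *Ifi204* in KO over WT cells was 3.98, with a counting interval of 1.35 to 19.4 around only 3 WT UMIs. Both KO mice lay above both WT mice for all 3 genes.

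The genes around *Mndal* were compared within 500 kb on chromosome 1, where 29 annotated genes lie, mostly PYHIN and olfactory receptor genes. In ECs 14 of them had a UMI, 9 were tested and 5 were called, all higher in KO. Besides *Mndal*, *Ifi203* and *Ifi204* these were *Ifi211*, a PYHIN gene overlapping *Mndal*, with 2, 5, 84 and 24 UMIs (log2 fold change 4.30 ± 0.73, adjusted p = 0.0142, edgeR), and *Aim2*, which encodes a DNA sensor of the inflammasome, at 13.2, 12.4, 19.9 and 19.2 (0.61 ± 0.12, adjusted p = 0.0247, edgeR). The other 4 tested genes were not called. *Ifi213* was at -0.67 ± 0.34 (adjusted p = 0.333), *Ifi208* at 0.30 ± 0.24, *Cadm3*, which encodes a cell adhesion molecule, at 0.50 ± 0.45 and *Ifi206* at 1.56 ± 0.53 (adjusted p = 0.147, edgeR).

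**Figure D3:**
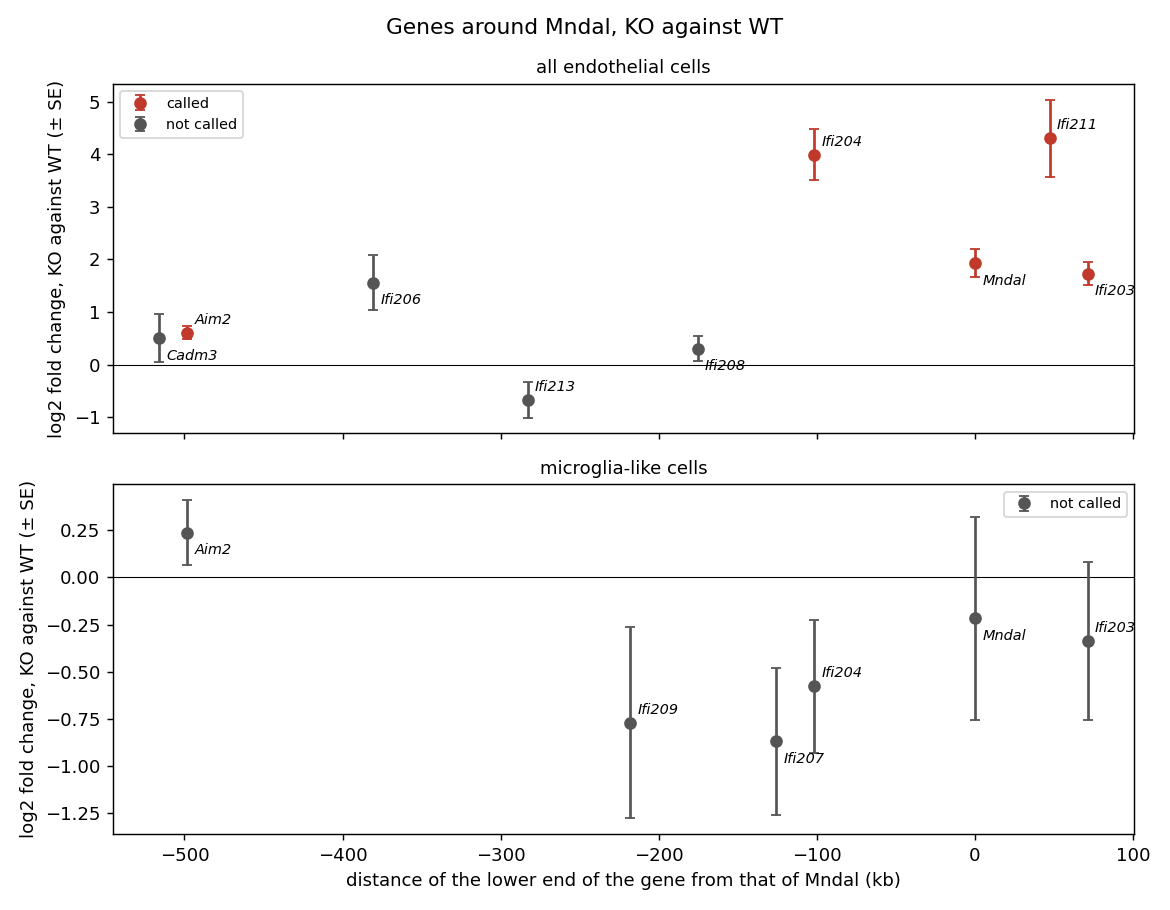
The log2 fold change of KO against WT (vertical axis, bars ± SE) of the tested genes near *Mndal*, by distance from *Mndal* in kb (horizontal axis), in ECs (9 genes) and in microglia-like cells (6 genes). In ECs 5 genes are called, all above 0, and in microglia-like cells none is called and *Mndal* and *Ifi203* lie below 0.

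ECs with an UMI of *Apln*, a gene that the study places in the profile of tip cells, were compared next. *Apln* UMIs were in 1.17%, 1.32%, 18.9% and 7.43% of ECs, against 0.478%, 1.22%, 4.12% and 2.17% of microglia-like cells, taken as the background. Both WT shares in ECs lay within the exact intervals of the microglial shares (0.0121% to 2.64% in WT1, 0.148% to 4.34% in WT2). Both KO shares lay above theirs (2.07% to 7.25% in KO1, 0.799% to 4.65% in KO2). At least 2 *Apln* UMIs were in 9, 15, 233 and 126 ECs. The WT *Apln*-positive ECs are therefore not shown to hold *Apln* above the background, which limits every comparison below that uses them. The *Apln*-positive group held 37 and 61 WT cells and 389 and 305 KO cells, with median UMIs per cell of 11761, 13224, 12745 and 5878. Its make-up moved with the genotype, since 24.3% and 18.0% of the WT but 76.9% and 63.0% of the KO cells lay in angiogenic-like clusters, and 54.1%, 65.6%, 12.9% and 16.7% lay in venous-like ones. What that difference in make-up adds to the values below was not tested beyond leaving these clusters out.

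In *Apln*-positive ECs 13 of 34 members tested were called, 4 higher and 9 lower in KO, where 5.69% of all genes were called higher and 4.13% lower. Of the members 21 had both KO mice below both WT mice and 4 had both above, against 25.9% and 25.9% of all genes, and the median log2 fold change was -0.40 beside -0.01 over all genes. *Oas1a* was not tested.

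The 4 that rose were the 3 PYHIN members and *Ifit2*. *Mndal* was at 28.2, 26.6, 116 and 64.3 (log2 fold change 1.76 ± 0.32, adjusted p = 0.0043), and *Ifi203* at 53.0, 26.6, 134 and 79.9 (1.58 ± 0.32, adjusted p = 0.0081, edgeR). *Ifi204* had 2, 0, 119 and 31 UMIs (adjusted p = 0.0135, edgeR), a KO over WT ratio of 12.6 with a counting interval of 3.44 to 105. *Ifit2* was at 22.9, 24.9, 54.2 and 37.7 (0.96, adjusted p = 0.0410, edgeR).

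The largest fall was that of *Ifitm1*, from 15.9 and 34.6 in WT1 and WT2 to 5.81 and 3.55 in KO1 and KO2 (-2.44 ± 0.40, adjusted p = 0.0021, edgeR). The level of *Ifitm1* was far higher in pericyte-like cells, as given below. In *Apln*-positive ECs the 7 pericyte markers summed to 252, 139, 115 and 96.5 CPM (not TMM-scaled), lower in both KO mice. The part of pericyte RNA in the fall of *Ifitm1* was not tested. *Ifitm3*, a close relative of *Ifitm1* that also blocks viral entry, was at 1347, 2167, 944 and 953 (-0.89, adjusted p = 0.0217, edgeR). Among the other effectors *Ifit1* was at 141, 178, 81.8 and 81.7 (-0.99 ± 0.15, adjusted p = 0.0016) and *Ifit3* at 83.0, 103, 55.0 and 44.1 (-0.92, adjusted p = 0.0092, edgeR). *Ifit1* and *Ifit3* thus fell while *Ifit2*, in the same locus, rose.

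Both called immunoproteasome genes fell, *Psmb9* at 120, 146, 71.5 and 62.2 (-1.002 ± 0.16, adjusted p = 0.0020) and *Psmb8* at 187, 261, 128 and 118 (-0.89, adjusted p = 0.0061, edgeR). *Isg15*, which encodes a ubiquitin-like modifier, was at 222, 320, 171 and 173 (-0.68, adjusted p = 0.0331, edgeR). The guanylate-binding protein genes *Gbp2*, at 131, 126, 80.4 and 81.0, and *Gbp3*, at 177, 155, 120 and 99.5, fell by 0.67 and 0.57 on the log2 scale (adjusted p = 0.0130 and 0.0372, edgeR). In each of these 9 genes both KO mice lay below both WT mice.

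None of the 13 was called without KO1 or without KO2, and 6 were called without WT2. DESeq2 called 9 of them and not *Ifi204*, *Ifit2*, *Gbp2* or *Gbp3* (adjusted p = 0.0574, 0.206, 0.0970 and 0.167), and *Ifit2* lost its call in 7 of 13 alternatives. Outside the angiogenic-like clusters only *Ifitm1* was called (-3.06, adjusted p = 0.0150, edgeR), while *Mndal* was at 1.42 and *Psmb9* at -0.81 (adjusted p = 0.174 and 0.0702, edgeR).

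**Figure D4:**
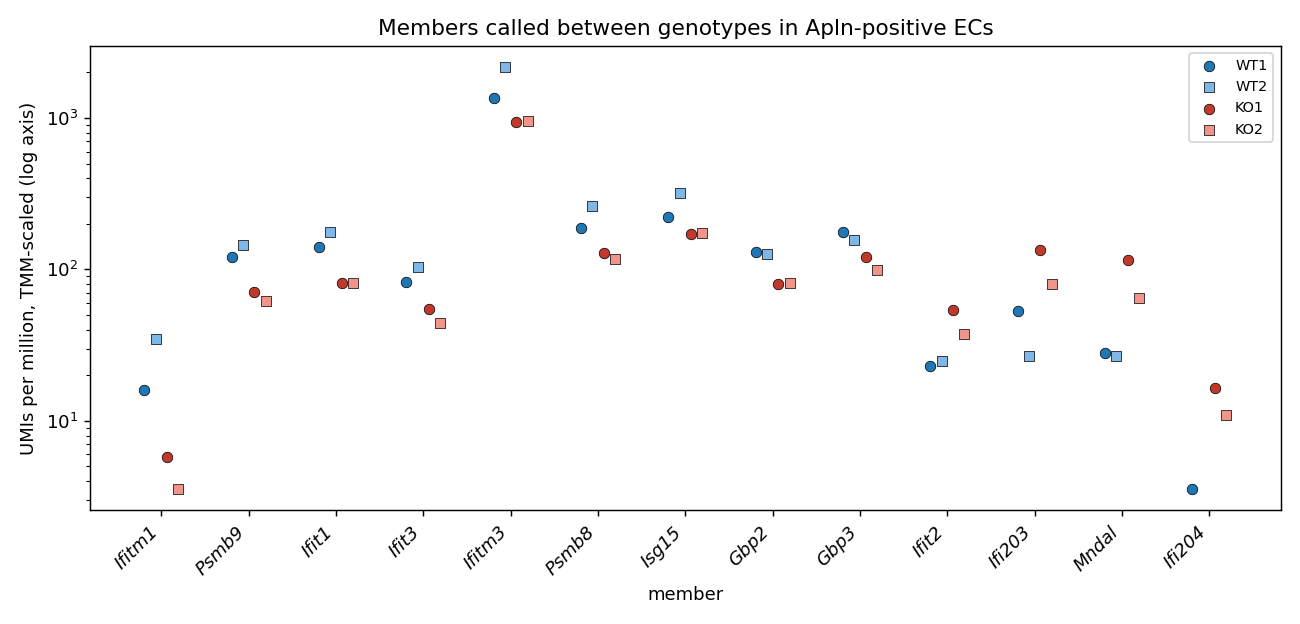
CPM (TMM-scaled, log axis) of the 13 members called between genotypes in *Apln*-positive ECs, with 1 point per mouse. The 9 members that fell stand on the left, the 4 that rose on the right, and the value of 0 of *Ifi204* in WT2 cannot be drawn on a log axis.

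Within each mouse, *Apln*-positive ECs were also set against *Apln*-negative ECs, with the mouse as a term. Of 35 members tested, 3 were higher and 1 lower in *Apln*-positive ECs, where 5.6% of all genes were called higher and 2.91% lower. *Rsad2* was lower in all 4 mice, at 34.4, 53.1, 48.4 and 53.3 in *Apln*-positive against 111, 94.0, 87.2 and 84.9 in *Apln*-negative ECs (log2 fold change -0.89 ± 0.12, adjusted p = 0.0014, edgeR). At 2000 UMIs per cell *Rsad2* was found in at most 11.7% of venous-like ECs of any mouse, and in at least 21.1% of arterial-like ECs. The *Apln*-positive ECs were mostly venous-like in WT mice and mostly angiogenic-like in KO mice. *Apln*-positive and *Apln*-negative ECs were not compared within zones, so the part of zone in these calls was not tested. *Rsad2* was not called between the genotypes in *Apln*-positive ECs.

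*Mndal* was higher in *Apln*-positive ECs in 4 of 4 mice (27.5, 26.1, 118 and 65.1 against 21.4, 18.3, 95.0 and 50.4), by 0.37 ± 0.09 on the log2 scale (adjusted p = 0.0265, edgeR). The WT1 and WT2 values rest on only 16 and 30 *Mndal* UMIs. At 2000 UMIs per cell *Mndal* was in 2.70%, 5%, 19.3% and 12.6% of *Apln*-positive ECs. In all ECs the shares were 3.52%, 3.56%, 15.8% and 8.80%, so WT1 went the other way. *Bst2*, which encodes tetherin, was higher in 4 of 4 mice as well (291, 348, 330 and 297 against 231, 309, 255 and 253), by 0.28 ± 0.07 (adjusted p = 0.0318, edgeR). *Ifi204* was higher in 3 of 4 mice (3.44, 0, 16.8 and 11.2 against 0.361, 0.432, 6.58 and 2.86; adjusted p = 0.0108, edgeR), and *Ifi203* was at 0.27 ± 0.10 (adjusted p = 0.142, edgeR). For *Mndal* the 2 KO mice stayed above the 2 WT mice in both sets of ECs. Only *Rsad2* was called without KO1 and without KO2 each.

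In mural cells *Ifi204* was the only call among 35 members, where 1.61% of all genes were called higher and 0.386% lower. It was at 1.83, 1.78, 22.7 and 9.45 (log2 fold change 3.17 ± 0.54, adjusted p = 0.0211, edgeR's quasi-likelihood test). *Mndal* was at 37.7, 57.9, 127 and 80.1 (1.12, adjusted p = 0.0587) and *Ifi203* at 54.5, 60.7, 132 and 84.1 (0.91, adjusted p = 0.0687, edgeR), with both KO mice above both WT mice. In all, 7 members had both KO mice above and 3 both below, beside 24.4% and 24.4% of all genes. The lowest changes were those of *Igtp*, a GTPase gene, with 30.4, 49.4, 27.5 and 21.9 (-0.68, adjusted p = 0.210), and *Ifit3*, with 30.01, 80.3, 35.4 and 36.3 (-0.62, adjusted p = 0.416, edgeR).

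Endothelial RNA was present in these mural sums, where the 7 endothelial markers added up to 4784, 5750, 7345 and 6515 CPM, higher in both KO mice, and 22.0% and 7.46% of the KO cells held an *Apln* UMI, against 1.20% and 0.296% of the WT cells. In the 375 mural cells with no UMI of these markers *Ifi204* had 2, 0, 4 and 1 UMIs and was not tested. No tested member was called there, *Mndal* was at 0.02 ± 0.40 and *Ifi203* at 0.13 ± 0.34 on the log2 scale (adjusted p = 0.998 and 0.988, edgeR), and *Mndal* had 15, 35, 22 and 12 UMIs. The part of endothelial RNA in the other mural values was not tested further. The make-up of the mural cells also moved with the genotype, since 6 smooth muscle markers summed to 19012, 17670, 5130 and 12461 CPM and 7 pericyte markers to 5757, 6976, 10447 and 8011 CPM, and its part was not tested beyond the separate comparisons of these cell types. Without WT1 or without WT2 no member was called in mural cells, and without KO2 *Mndal* and *Ifi203* were called as well.

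Pericyte-like cells (73, 147, 175 and 211) had 2 calls among 34 members, beside 3.35% of all genes called higher and 1.87% lower. *Ifitm1* fell, from 407 and 652 in WT1 and WT2 to 171 and 258 in KO1 and KO2 (log2 fold change -1.32 ± 0.24, adjusted p = 0.0041), and *Ifi204* rose, at 5.51, 2.07, 29.3 and 16.6 (2.83 ± 0.56, adjusted p = 0.0079, edgeR). *Mndal* was at 53.2, 93.0, 147 and 114 (0.79, adjusted p = 0.0527, edgeR). *Ifit3* was at 36.7, 83.7, 39.2 and 42.9, the second lowest change.

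Leaving out single mice changed these calls. Without WT2 neither was called, and without KO1 *Ifi204* was not (2.28, adjusted p = 0.151, edgeR). Without KO2 *Mndal* and *Ifi203* were called too. In smooth muscle-like cells no member was called by edgeR or by DESeq2, and 0% of all genes were called higher and 0% lower. At an unadjusted p under 0.05 (edgeR) were 4 of 33 members, beside 5.31% of all genes. There *Mndal* was at 33.3, 39.5, 74.2 and 42.4, *Ifi203* at 46.4, 47.1, 71.2 and 48.5, *Ifitm1* at 40.5, 36.8, 21.8 and 15.5 and *Ifit3* at 27.9, 78.5, 27.7 and 29.6.

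The rise of *Ifi203* was smaller in mural cells than in ECs, with a difference of -0.85 ± 0.14 on the log2 scale (adjusted p = 0.0113, edgeR's test of the interaction). *Ifitm1* was at 114, 248, 135 and 145 in the mural sums (-0.38, adjusted p = 0.578, edgeR), and its change there minus that in ECs was 1.35 ± 0.21 (adjusted p = 0.0075, edgeR's test of the interaction). Within each mural type its level was lower in both KO mice, with log2 fold changes of -1.32 in pericyte-like and -1.09 in smooth muscle-like cells, and pericyte-like cells, where it was higher, were 73 of 333, 147 of 338, 175 of 227 and 211 of 402 mural cells. The difference from ECs was not tested within the mural types. *Ifi203* and *Ifitm1* were the 2 members called in this difference, beside 1.93% of all genes. The difference for *Mndal* was -0.82 ± 0.21 (adjusted p = 0.0800, edgeR). Without WT2 that of *Ifi203* was -0.62 (adjusted p = 0.143, edgeR).

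In microglia-like cells no member was called by edgeR among 34 tested, and DESeq2 called *Ifitm3* lower but gave no adjusted p for the other 33. At an unadjusted p under 0.05 (edgeR) were 2 members, beside 6.53% of all genes. Of all genes 0.0325% were called higher and 0% lower. *Mndal* was at 14.9, 44.8, 14.0 and 38.4 (log2 fold change -0.22, adjusted p = 0.971) and *Ifi203* at 20.2, 38.0, 15.2 and 32.01 (-0.34, adjusted p = 0.938, edgeR). For both, mice 1 (female) and mice 2 (male) stood apart and the genotypes overlapped.

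*Ifi204* was at 24.4, 24.4, 19.7 and 11.9 in microglia-like cells (-0.58, adjusted p = 0.831, edgeR), with both KO mice below both WT mice. The largest rises were those of *Gbp7*, with 84.9, 78.7, 103 and 115 (0.41, adjusted p = 0.755, edgeR), and *Ifitm1*, with 35.02, 44.8, 94.4 and 0, which was highest in KO1. The lowest changes were those of *Rsad2*, with 12.7, 38.0, 11.8 and 11.9 (-1.04, adjusted p = 0.784), and *Ifitm3*, with 455, 643, 271 and 377 (-0.77, adjusted p = 0.480, edgeR). Of the members 12 had both KO mice below both WT mice and 2 had both above, against 18.8% and 17.9% of all genes, and the median log2 fold change was -0.29, beside a median of 0.00 over all genes. Marker sums of other cell types moved with the genotype in these cells, with endothelial markers at 2014, 2465, 994 and 1855 CPM, those of choroid plexus epithelium at 1240, 931, 96.5 and 384 and those of neutrophils or monocytes at 131, 344, 485 and 904. In the 418 microglia-like cells with no UMI of the endothelial markers no member was called either, and the part of these markers was not tested further.

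The rises of *Ifi203*, *Mndal* and *Ifi204* were not found in microglia-like cells, and the differences from ECs were -2.08 ± 0.38 (adjusted p = 0.00016), -2.15 ± 0.43 (adjusted p = 0.00081) and -4.56 ± 0.57 (adjusted p = 2.1e-08) on the log2 scale (edgeR's test of the interaction), beside 1.6% of all genes called in this difference. Without KO1 the differences were -1.14, -0.91 and -4.19, and without WT2 -1.47, -1.09 and -4.53. Of these 3 only *Ifi204* remained called in both. With all 4 mice no other member was called in this difference. *Ifitm1* was called without WT1, without KO1 and without KO2 each, and *Rsad2* without WT1.

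The other genes of the interferon pathway were followed with lists of 84 genes, of which 79 were in the counts. In ECs 68 were tested, 4 were higher and 6 lower in KO, with a median log2 fold change of -0.12. Of all genes tested in ECs, 3.75% were called higher and 2.07% lower. The 6 interferon ligand genes were too low for a test, and the 7 tested receptor and kinase genes, which carry the signal from the cell surface, had no call. The 8 class I antigen presentation genes had no call and all lay below 0.

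The pathway genes that rose in ECs were *Irf8*, a transcription factor, at 1.46, 0.804, 4.52 and 2.99 (log2 fold change 1.75, adjusted p = 0.0308), *Tmem173*, which encodes the DNA-sensing adaptor STING, at 5.05, 5.18, 15.8 and 10.7 (1.37, adjusted p = 0.0089), *Phf11d* (0.84, adjusted p = 0.0138, edgeR) and *Aim2*. Those that fell were *Ifi27l2a*, at 72.2, 62.4, 29.1 and 31.2 (-1.16, adjusted p = 0.0023, edgeR), the chemokine gene *Cxcl10* (-1.35), the nucleic acid sensor gene *Zbp1* (-0.997), *Irf5* (-0.67), *Slfn2* (-0.65) and *Gbp4* (-0.53). The pathway genes thus held calls in both directions, as did all genes tested in ECs.

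In *Apln*-positive ECs 4 of 65 tested pathway genes were higher (*Irf8*, *Tmem173*, *Aim2* and the receptor gene *Ifngr2*) and 14 were lower. Of all genes 5.69% were called higher there and 4.13% lower. The 14 included 5 of the 8 class I presentation genes (*Psmb10*, *H2-K1*, *Tap2*, *H2-Q4* and *H2-T23*) and 6 further induced genes (*Gbp5*, *Gbp4*, *Slfn2*, *Ifi27l2a*, *Iigp1* and *Ifit3b*), and the others were *Stat3*, *Socs3* and *Zbp1*. In the zones the calls were *Oas2* and *Ifi27l2a*, both lower, in arterial-like ECs and *Zbp1* and *Cxcl10*, both lower, in venous-like ECs. Pathway genes tested were 66 in arterial-like, 66 in venous-like and 65 in capillary-like ECs. Of all genes, 0.412% and 0.587% were called lower in arterial-like and venous-like ECs. No pathway gene was called in capillary-like ECs, mural cells, smooth muscle-like cells or microglia-like cells by edgeR. In pericyte-like cells *H2-T23* was lower (-0.91), 1 of 56 tested, beside 1.87% of all genes called lower.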

How the data were processed

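Libraries of 4 mice were made with the Next GEM 3′ v3.1 kit. The authors aligned reads to mm10 with Cell Ranger 6.1.2 (per the submitters' processing notes) and deposited raw UMI counts per gene and barcode, without normalization, for 32286 genes, of which 32158 (99.6%) are in GENCODE M21. Strand and annotation settings of the counting are not given in the sources used here.

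The filter on genes (over 500) and mitochondrial UMIs (under 10%) kept 17999 cells. Clusters were made with Seurat 5.3.0 in R 4.3.3 from 2000 variable genes, without 144 interferon, dissociation and sex genes, and 50 components (resolution 0.2, then 0.4 within ECs), and named from markers of which at least 3 had to be detected. Doublets were not called. The alternative without the 5% of cells with most UMIs in each library addressed them. The summed UMIs per mouse and group were tested with edgeR 4.0.16 (filterByExpr, TMM, quasi-likelihood test, Benjamini-Hochberg over all genes tested, threshold 0.05), and with DESeq2 1.42.0 as an alternative. Differences between cell groups were tested as interactions with the mouse as a term. The scripts were tested on simulated counts. Shares have exact Clopper-Pearson 95% intervals, which cover counting error only.

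Members and gene lists were chosen with earlier results of these data known. By rule, all 35 members are described by role, with values in every mouse for *Mndal*, *Ifi203*, *Ifi204*, every called member and the 2 largest rises and falls of each genotype comparison. Genes that are no members are named where they lie within 500 kb of *Mndal* and were tested, or belong to a pathway list and were called. Alternatives covered the filters, normalization, a replicate block, leaving out each mouse, and other choices of cells. Some of these choices of cells were added after seeing the data. Same-numbered mice share a sex. The study speaks of 2 independent experiments, and which mice belonged to which is not given in the sources used here.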

Additional observations from a re-analysis of the deposited data

Results flagged for a closer look

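A difference in the genotype effect between cell groups, by a test of the difference itself (edgeR's quasi-likelihood interaction test), drew attention to 5 results. The log2 fold change of KO against WT in microglia-like cells minus that in ECs was -2.08 for *Ifi203*, -2.15 for *Mndal* and -4.56 for *Ifi204*. For mural cells minus ECs it was -0.85 for *Ifi203* and 1.35 for *Ifitm1*. The mural value of *Ifitm1* is from a sum whose share of pericyte-like cells was higher in both KO mice, and within pericyte-like and smooth muscle-like cells its log2 fold change was -1.32 and -1.09. The levels of *Ifitm1* in ECs were 9.58, 21.2, 3.10 and 6.34 CPM in WT1, WT2, KO1 and KO2, so WT2 was the highest.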

How the results depend on the processing

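Results here are the number of members called in each comparison and the log2 fold changes of the named members. The share of all genes called under each alternative is not given, here or above. A count of members under an alternative therefore does not tell whether the members or all genes were called more often. Of the 6 reversals, none was of a called value. In microglia-like cells the log2 fold change of *Mndal* ran from -1.02 to 0.75 with 1 mouse left out at a time (0.42 without KO1 and 0.75 without WT2), and that of *Ifi203* from -0.89 to 0.17 (0.17 without KO1 and without WT2 each). The arterial-like minus capillary-like difference of *Ifi204* ran from -1.44 to 0.51 (without WT2), and the venous-like minus capillary-like difference of *Mndal* from -0.18 to 0.034 (without KO2).

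Leaving out 1 mouse at a time, which assumes that a lone mouse of a genotype varies like the others, gave 0 to 8 called members in ECs, 2 to 4 in arterial-like, 2 to 3 in capillary-like and 1 to 15 in venous-like ECs, 0 to 17 in *Apln*-positive ECs, 0 to 3 in mural cells, 0 to 5 in pericyte-like, 0 to 2 in smooth muscle-like and 0 to 2 in microglia-like cells. It gave 1 to 10 between *Apln*-positive and *Apln*-negative ECs, and for the differences from ECs 1 to 5 in microglia-like and 1 to 5 in mural cells, 0 to 2 for arterial-like and 0 to 0 for venous-like minus capillary-like ECs. The lowest counts came without WT2 in ECs, venous-like and pericyte-like cells.

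DESeq2 called 8 members in ECs (5 by edgeR), 9 in *Apln*-positive ECs (13), 1 in capillary-like ECs (2), 2 in mural cells (1) and 1 in microglia-like cells (0). With no filter on low counts, 0 were called in arterial-like ECs, 4 in capillary-like, 10 in venous-like ECs, 3 in mural, 4 in pericyte-like, 1 in smooth muscle-like and 1 in microglia-like cells, and 7 between *Apln*-positive and *Apln*-negative ECs. The stricter filter left 0 in mural cells, where *Ifi204* has too few UMIs to pass it. Over 1000 genes per cell gave 4 in pericyte-like cells. Leaving out the angiogenic-like clusters gave 2 in ECs and 1 in *Apln*-positive ECs, at least 2 *Apln* UMIs gave 7 in *Apln*-positive ECs and 13 against *Apln*-negative ECs, the KO mice alone gave 17 in that comparison, and mural cells without endothelial marker UMIs gave 0, where *Ifi204* was not tested. The cause of these changes was not tested.

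The replicate block (same-numbered mice, also of the same sex) gave 7 called members in ECs (5 without it), adding *Ifit2*, *Ifitm1* and *Psmb8* and losing *Ifit1*, 2 in arterial-like, 5 in capillary-like and 8 in venous-like ECs, 14 in *Apln*-positive ECs, 1 in mural, 5 in pericyte-like and 0 in microglia-like cells. Deviations of same-numbered mice correlated at -0.045 to 0.229 across genes over 9 cell groups, and were over 0.1 in arterial-like, capillary-like, venous-like and *Apln*-positive ECs. With 2 such pairs, and the experiment of each mouse not given, whether the numbers pair the mice is not known. The shares of ECs with a *Mndal* UMI differed by 8.74 percentage points between genotypes at 2000 UMIs per cell, by 4.52 at 1000 and by 17.9 unthinned, and those with an *Ifi203* UMI by 9.48, 5.25 and 18.1. Depth limits *Ifi204*, with 11 and 14 UMIs in the WT ECs.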

Other observations

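Cell groups outside the comparisons above also held *Mndal* and *Ifi203*. In fenestrated endothelial-like cells *Mndal* was at 176, 192, 227 and 190 CPM in WT1, WT2, KO1 and KO2 (not TMM-scaled), *Ifi203* at 197, 190, 207 and 216, and *Ifi204* at 12.5, 15.4, 16.0 and 12.1. The genotypes overlapped there for *Mndal* and *Ifi204*, and all 3 genes stood above their levels in the ECs of the same mice. In B cell-like cells *Mndal* was at 242, 303, 284 and 309 CPM and *Ifi203* at 292, 205, 291 and 242, whereas *Ifi204* had 0 UMIs in all 4 mice. These values were not tested.

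In erythroid-like cells *Mndal* was at 16.9, 15.7, 81.4 and 28.1 CPM, in the same order of mice as in ECs (KO1, KO2, WT1, WT2 from the highest). In choroid plexus epithelium-like cells *Ifi203* had 3, 4, 2 and 237 UMIs and *Mndal* 4, 6, 3 and 134. Nearly all came from KO2, which also held most of these cells (26, 57, 14 and 179). In CPM *Ifi203* was at 13.5, 3.76, 7.05 and 75.7 and *Mndal* at 17.9, 5.64, 10.6 and 42.8. Neither group was tested.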
